A study of Homo sapiens with 5 samples.

Results

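C/D box small nucleolar RNAs (C/D box snoRNAs) were followed in RNA recovered with the protein PSF from prostate cancer cells. Members were all genes of the deposited table with a symbol of the form SNORD followed by a digit and a count above 0 in at least 1 library. The table listed 275 such genes, of which 177 were members, beside 17015 detected genes of 25702 in all. All 177 matched a RefSeq gene table by gene ID, and all 177 were annotated there as snoRNAs. Their gene lengths ran from 43 to 237 bases with a median of 83, the short size known of this class.

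C/D box snoRNAs are short nuclear RNAs that carry the C and D sequence boxes and assemble with fibrillarin, NOP56, NOP58 and SNU13 into ribonucleoprotein particles. Most guide the 2′-O-methylation of ribosomal RNA, some guide that of the spliceosomal U6 RNA, and a few, with U3 the best known, are needed to cut the ribosomal RNA precursor. In human cells nearly all are released from introns of host genes, many of which encode ribosomal proteins or noncoding RNAs such as GAS5 and SNHG1. PSF, the product of the SFPQ gene, binds RNA in the nucleus and is found in the bodies called paraspeckles.

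The cells were LTAD, a prostate cancer line of human origin, and all groups shared the same androgen-depleted medium with charcoal-stripped serum and no phenol red. RNA immunoprecipitation and sequencing (PSF-RIP) was done after the DMSO vehicle (1 library) or after 5 µM No.10-3, a compound given only as this code name (replicates 1 and 2, so 2 libraries). Total RNA before the immunoprecipitation (input) was sequenced in 2 libraries, 1 from vehicle and 1 from No.10-3 cells. The column names do not tell these inputs apart, so input 1 and input 2 were used as a single reference and a difference between them has no known treatment. No control immunoprecipitation was among these samples, so RNA held by PSF and RNA carried along with the beads cannot be told apart. The labels do not say whether the treated libraries came from separate cultures, so p-values measure only the spread between these libraries, which may be technical. A difference between PSF-RIP libraries may reflect recovery or the amount of RNA in the cells, and these cannot be told apart.

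The libraries held 4010376 and 3083063 counts over genes for input, 2181770 for vehicle PSF-RIP, and 1519362 and 3368252 for No.10-3 PSF-RIP replicates 1 and 2. The abundant RNAs RN7SK, RN7SL1, RN7SL2, RMRP and RPPH1 took 51.7% and 55.0% of input counts but 2.63% to 7.81% of PSF-RIP counts, and mitochondrially encoded genes took 26.3% and 24.4% of input and 6.91% to 12.2% of PSF-RIP counts. All 9 luminal prostate markers were detected, with a summed level of 569 CPM (counts scaled to a common library total) in each input and 2630 to 3124 CPM in PSF-RIP. The defining markers TP63 and KRT5 (basal), DCN (stromal), CHGA (neuroendocrine) and PTPRC and CD3E (immune) were at 0 in all libraries. Others of these lists were read at low counts, with SYP at 4 to 23, CD68 at 2 to 28 and KRT14 at 0 to 4 counts. The summed stromal list, carried by COL1A1 (15 and 6 counts in input, 164, 77 and 169 in PSF-RIP), was at 1.95 to 3.74 CPM in input and 52.0 to 76.1 CPM in PSF-RIP, and its part in the results was not tested.

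Because the small abundant RNAs fill so much of the input, RIP over input depends on the scale. Values below are on edgeR's TMM scale, which sets the typical gene to no change, and are called scaled CPM. On plain total counts the median of all genes tested moved up by 2.33 log2 units for vehicle PSF-RIP over input and by 2.34 for No.10-3 PSF-RIP over input. A member below input on the TMM scale was thus below relative to the typical gene. Of the members called lower on the TMM scale, 0 of 5 with vehicle and 6 of 21 with No.10-3 had a change above 0 on total counts. On total counts 85 of 115 tested members were called higher and 0 lower with vehicle. With No.10-3, 33 were called higher and 3 (SNORD3A, SNORD3B-2 and SNORD8) lower. Over all 13321 genes tested, the same scale gave 9720 higher and 50 lower with vehicle, and 11524 and 53 with No.10-3. Most genes were thus called higher on that scale.

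Most of the sequence reads of the class came from a single RNA. C/D box snoRNAs took 1.18% of counts in input 1 (95% Wilson interval, counting error only, 1.17 to 1.19%) and 0.357% in input 2 (0.351 to 0.364%). They took 1.23% with vehicle PSF-RIP (1.22 to 1.25%), 0.578% in No.10-3 replicate 1 (0.566 to 0.591%) and 0.163% in replicate 2 (0.158 to 0.167%). SNORD3A, the main U3 gene, gave 93.1% and 78.7% of the class's counts in the inputs, 74.3% with vehicle PSF-RIP, and 64.8% and 67.7% with No.10-3. Without the U3 genes the share was 0.0802% and 0.0754% in input, 0.316% with vehicle PSF-RIP, and 0.204% and 0.0523% in No.10-3 replicates 1 and 2. The inputs thus lay close together once U3 was set aside, while vehicle PSF-RIP stood above both, replicate 1 lay between, and replicate 2 lay below both inputs. The places of vehicle PSF-RIP and of replicate 1 belong to the total-count scale. On the TMM scale all PSF-RIP libraries lay below both inputs, since outside U3 the members summed to 2070 and 2063 scaled CPM in input, 1642 with vehicle PSF-RIP, 1144 in replicate 1 and 254 in replicate 2.

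**Figure D1:**
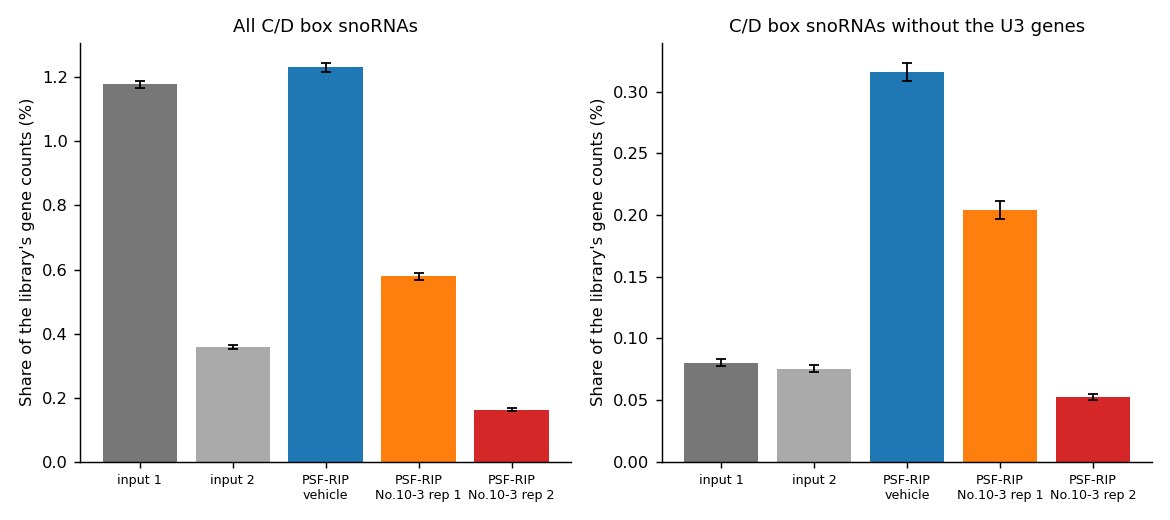
Share of each library's gene counts in C/D box snoRNAs (percent, bars from 0; each panel has its own scale), for all members at left and for members outside the U3 genes at right, with 95% Wilson intervals for counting error. With U3 the inputs differ (1.18% and 0.357%); without it they lie at 0.0802% and 0.0754%, vehicle PSF-RIP at 0.316% and the No.10-3 libraries at 0.204% and 0.0523%.

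Members were detected in numbers that ranged from 131 in input 2 to 157 in vehicle PSF-RIP, and 115 had a mean of at least 1 CPM over the 5 libraries and entered the test. The other 62 were too low, and 9 of the 177 rested on a single read. The median count of a tested member was 9 and 5 in the inputs, 18 with vehicle PSF-RIP, and 7 and 8 with No.10-3, so most single values carry large counting error. A count of 0 still allows a level of up to 0.748 to 1.97 CPM of total counts, depending on the library. The 98 genes at 0 in every library were mainly the imprinted clusters. All 47 SNORD115 copies and 39 of 40 genes of the DLK1-MEG3 cluster were at 0, and the remaining one, SNORD114-3, had 2 counts in vehicle PSF-RIP and 0 elsewhere. SNORD118, the U8 RNA of large-subunit rRNA processing, was also listed at 0.

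The test was edgeR's quasi-likelihood test with Benjamini-Hochberg adjustment over 13321 genes and a threshold of 0.05, and SE is the standard error of a log2 change. With vehicle, 5 of the 115 tested members (4.35%) were lower in PSF-RIP than in input and 0 were higher, where 10.4% of all genes tested were lower and 10.1% higher. The share of members called lower was thus below the background. The median change of the members was 0.13 log2 units beside 0.03 over all genes, with 66 members above and 49 below input. With No.10-3, 21 members (18.3%) were lower than input and 0 were higher, where 6.51% of all genes were lower and 5.03% higher. The median change was -1.28 log2 units beside 0.08 over all genes, with 19 members above input. DESeq2 called 1 and 7 members lower in these comparisons, where it called 995 and 576 of the 13321 genes lower. Without input 1, the members' medians in edgeR were 0.27 and -0.94 log2 units, beside 0.10 and 0.14 over all genes. For No.10-3 over vehicle PSF-RIP no member was called by edgeR or DESeq2, and no gene at all was, a background of 0%. At an unadjusted p under 0.05 edgeR gave 847 genes, 42 of them members, and DESeq2 gave 273 genes. The smallest edgeR adjusted p over all genes was 0.498, for SNORD8.

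The members are given by their role, and no difference between roles was tested. U3, which binds the ribosomal RNA precursor and is needed for making 18S ribosomal RNA, was the member with the most counts and lay below both inputs in PSF-RIP on the TMM scale. SNORD3A stood at 28292 and 7695 scaled CPM in inputs 1 and 2, 4753 with vehicle PSF-RIP, and 2102 and 535 in No.10-3 replicates 1 and 2. All PSF-RIP libraries lay below both inputs, but the inputs themselves were 1.88 log2 units apart. The log2 change was -1.92 with vehicle (SE 0.79, edgeR adjusted p = 0.0753), which did not pass, and -3.77 with No.10-3 (SE 0.65, edgeR adjusted p = 1.3e-04), which passed.

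The minor U3 genes were read from few counts. SNORD3B-2 had 20 and 16 counts in input, 2 with vehicle PSF-RIP, and 0 and 4 with No.10-3. It was lower in both comparisons, at 0.0355 times input with vehicle (counting interval 0.0041 to 0.138, edgeR adjusted p = 0.0019) and 0.0309 times with No.10-3 (0.0080 to 0.0862, edgeR adjusted p = 2.9e-05). SNORD3D had 16 and 6 counts in input, 2 with vehicle PSF-RIP, and 1 and 3 with No.10-3, a ratio of 0.0580 (0.0066 to 0.236) and of 0.0506 (0.0127 to 0.149), both called lower. SNORD3C, with 11 and 2 counts in input and 1 in PSF-RIP, and SNORD3B-1, with 1 count, were not tested. U3 copies are near-identical, how reads that map to several copies were counted is not given in the sources used here, and the split of reads between them is uncertain. Summed over the 5 genes, U3 was 3.79-fold lower than the input mean in vehicle PSF-RIP, 8.57-fold in No.10-3 replicate 1 and 33.6-fold in replicate 2. On total counts U3 stood at 10981 and 2819 CPM in input, 9150 with vehicle PSF-RIP, and 3746 and 1103 with No.10-3, so only replicate 2 lay below both inputs on that scale.

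With vehicle, the rRNA-processing snoRNAs SNORD22 and SNORD14 sat closer to input than SNORD3A. SNORD13 was about as far below input as SNORD3A, at log2 changes of -1.72 and -1.92. SNORD22 (U22), which acts in 18S processing and lies in an SNHG1 intron, stood at 170 and 161 scaled CPM in input, 146 with vehicle PSF-RIP, and 117 and 11.0 with No.10-3. Its vehicle value was -0.17 log2 units from input with an SE of 0.63, and the low value was that of replicate 2 alone. SNORD13 (U13), which guides an acetylation of 18S ribosomal RNA, stood at 30.9 and 33.7 scaled CPM in input, 9.76 with vehicle PSF-RIP, and 9.98 and 0.721 with No.10-3. It was lower with No.10-3 (log2 change -2.83, SE 0.61, edgeR adjusted p = 0.0021) and did not pass with vehicle (-1.72, edgeR adjusted p = 0.0756). The 5 SNORD14 (U14) copies, also of 18S processing, had 1 to 79 counts per library and none passed. Their log2 changes over input ran from -0.81 (SNORD14E) to 0.56 (SNORD14C) with vehicle and from -1.96 (SNORD14D) to -0.77 (SNORD14A) with No.10-3. Of the 13 rRNA-processing genes listed, U3 included, 10 were tested. Of these, 2 were lower with vehicle (background 10.4%) and 4 with No.10-3 (background 6.51%). The 2 vehicle calls were the U3 genes SNORD3B-2 and SNORD3D. With No.10-3, 3 of the 4 calls were U3 genes, and SNORD13 was the only one outside U3. The medians of the list, -0.60 and -1.82 log2 units, include the 3 tested U3 genes.

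Listed guides for the methylation of U6, the RNA of the spliceosome's catalytic core, lay below input on the TMM scale. The list may leave out other U6 guides, and the values below hold for the listed ones only. All 4 tested guides of the list are long for the class (SNORD9 103, SNORD8 109, SNORD67 111 and SNORD10 148 bases). Role and length cannot be told apart here. Of 5 listed, SNORD7 was too low to test. All 4 others were lower with No.10-3 (background 6.51%), while 1 (SNORD67) was lower with vehicle (background 10.4%). Their median change was -1.45 log2 units with vehicle and -3.21 with No.10-3. SNORD8 stood at 83.0 and 89.7 scaled CPM in input, 30.7 with vehicle PSF-RIP, and 9.61 and 1.15 with No.10-3, an order with no overlap between the 3 groups. On total counts vehicle PSF-RIP lay above input, at 59.1 CPM beside 32.2 and 32.8, and both treated libraries still lay below it, at 17.1 and 2.38 CPM. Its log2 change was -1.49 with vehicle (SE 0.59, edgeR adjusted p = 0.0661), -4.23 with No.10-3 (SE 0.55, edgeR adjusted p = 9.3e-07) and -2.74 between the treatments (SE 0.59, edgeR adjusted p = 0.498). SNORD9 followed the same order, at 24.4 and 26.6 scaled CPM in input, 9.52 with vehicle PSF-RIP, and 5.54 and 0.577 with No.10-3 (log2 change over input with No.10-3 -3.36, SE 0.61, edgeR adjusted p = 3.1e-04). SNORD10 was near input with vehicle, at 149 and 115 against 110 scaled CPM, and stood at 46.9 and 5.91 with No.10-3 (log2 change -2.38, SE 0.52, edgeR adjusted p = 0.0022). SNORD67 stood at 13.5 and 16.0 scaled CPM in input, 2.62 with vehicle PSF-RIP, and 3.69 and 0.577 with No.10-3, so vehicle and replicate 1 were alike in level. It was lower in both comparisons, with log2 changes of -2.47 with vehicle (SE 0.78, edgeR adjusted p = 0.0229) and -3.07 with No.10-3 (SE 0.66, edgeR adjusted p = 0.0020). Among C/D counts outside U3, a share that needs no scaling between libraries, these guides took 13.1% and 12.2% in input, 9.34% with vehicle PSF-RIP, and 5.85% and 3.35% with No.10-3. Among the counts of members of at least 100 bases alone, a denominator chosen after seeing the data, they took 19.3% and 16.9% in input, 17.6% with vehicle PSF-RIP, and 11.1% and 10.1% with No.10-3, so vehicle lay between the inputs and both treated libraries below them.

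**Figure D2:**
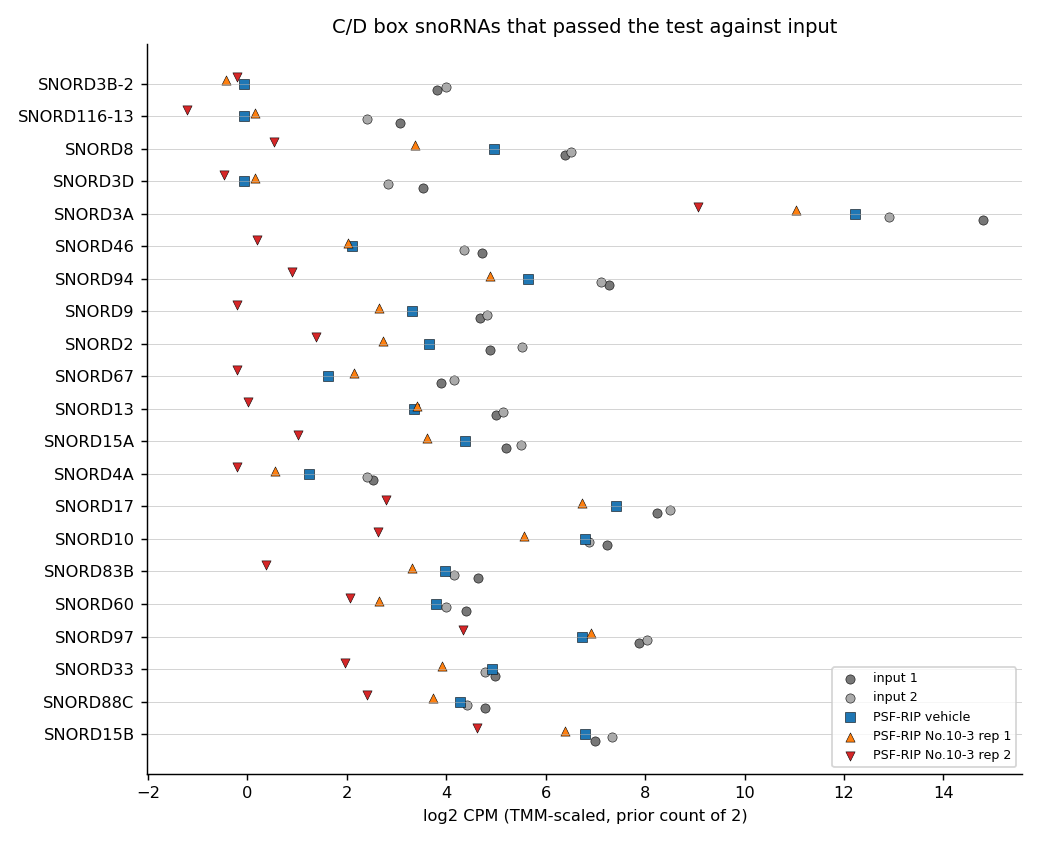
Log2 CPM (TMM-scaled, with a prior count of 2) in each of the 5 libraries for the 21 members lower in No.10-3 PSF-RIP than in input. No.10-3 replicate 2 is the lowest library for most of them, and vehicle PSF-RIP lies below both inputs for all but SNORD33.

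The SNORD116 copies went the other way with vehicle. These RNAs come from the imprinted SNURF-SNRPN region, whose loss on the paternal chromosome is tied to Prader-Willi syndrome, and they have no established ribosomal RNA target. Of 29 copies, 27 were detected and 17 tested. Summed over all copies, they had 236 and 176 counts in input, 1173 with vehicle PSF-RIP, and 721 and 262 with No.10-3. That is 152 and 156 scaled CPM in input, 279 with vehicle PSF-RIP, 266 in replicate 1 and 37.8 in replicate 2. Vehicle and replicate 1 thus lay 1.81-fold and 1.73-fold above the input mean, and replicate 2 lay 4.08-fold below it. On total counts replicate 2 lay above input instead, at 77.8 CPM beside 58.8 and 57.1, and vehicle PSF-RIP and replicate 1 lay higher still, at 538 and 475 CPM. Their share of C/D counts outside U3 was 7.33% (6.48 to 8.29%) and 7.57% (6.57 to 8.72%) in input, 17.0% (16.1 to 17.9%) with vehicle PSF-RIP, 23.3% (21.8 to 24.8%) in replicate 1 and 14.9% (13.3 to 16.6%) in replicate 2. On this share all PSF-RIP libraries lay above both inputs, with intervals that did not overlap those of the inputs, though the intervals cover counting error only. The long members took a smaller part of this denominator in replicate 2. Among the counts of members under 100 bases alone, a denominator chosen after seeing the data, the copies took 22.6% and 26.2% in input, 36.1% with vehicle PSF-RIP, 48.3% in replicate 1 and 21.9% in replicate 2, so replicate 2 was not above the inputs there.

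By copy, 13 of the 17 tested lay above both inputs with vehicle PSF-RIP (background 43.8%), 12 in replicate 1 (background 43.0%) and 1 in replicate 2 (background 43.5%). No copy passed as higher in either comparison with input. The nearest was SNORD116-8, at 10.9 and 9.77 scaled CPM in input, 33.3 with vehicle PSF-RIP, and 29.2 and 4.33 with No.10-3, with a log2 change of 1.68 with vehicle (SE 0.64, edgeR adjusted p = 0.0570) and 0.61 with No.10-3 (edgeR adjusted p = 0.514). The most abundant copies, SNORD116-24 and SNORD116-16, also stood above both inputs with vehicle and in replicate 1 and below them in replicate 2. SNORD116-24 stood at 18.0 and 27.5 scaled CPM in input, 47.4 with vehicle PSF-RIP, and 39.2 and 4.04 with No.10-3, a log2 change of 1.07 with vehicle (SE 0.63, edgeR adjusted p = 0.223). SNORD116-16 stood at 21.2 and 21.3 scaled CPM in input, 40.5 with vehicle PSF-RIP, and 40.6 and 3.60 with No.10-3, a log2 change of 0.93 with vehicle (edgeR adjusted p = 0.312).

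Of the copies, 4 had a change below 0 with vehicle. SNORD116-26 (-1.20 log2 units), SNORD116-18 (-0.46) and SNORD116-14 (-0.08) did not pass, and SNORD116-13 did. SNORD116-13 had 11 and 4 counts in input, 2 with vehicle PSF-RIP, and 1 and 1 with No.10-3. The ratio to input was 0.0851 with vehicle (counting interval 0.0094 to 0.366, edgeR adjusted p = 0.0268) and 0.0371 with No.10-3 (0.0041 to 0.159, edgeR adjusted p = 0.0029), so it was lower in both. The median change of the 17 tested copies was 0.75 log2 units with vehicle and -0.14 with No.10-3. Over vehicle, the copies' median was 0.01 log2 units in replicate 1 and -2.68 in replicate 2. The copies resemble each other closely, so the assignment of reads to single copies is uncertain, and the sum is less exposed to it.

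**Figure D3:**
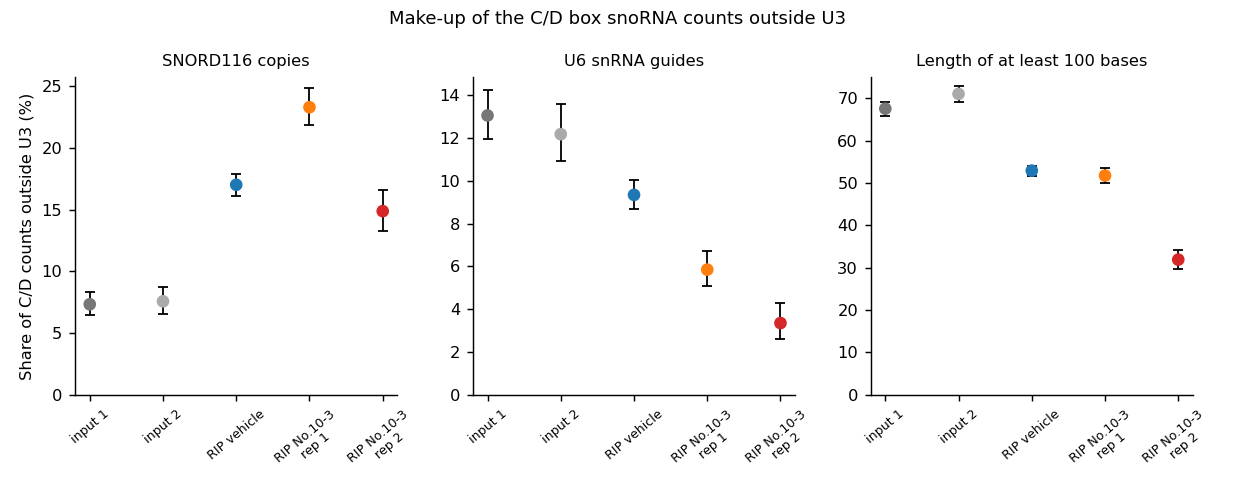
Share of the C/D box snoRNA counts outside the U3 genes (percent) taken in each library by SNORD116 copies, U6 guides and members of at least 100 bases, with 95% Wilson intervals for counting error; each panel has its own scale. SNORD116 copies take 7.33% and 7.57% in input and 14.9% to 23.3% in PSF-RIP. The listed U6 guides take 13.1% and 12.2% in input and 3.35% to 9.34% in PSF-RIP.

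A listed set of members from introns of ribosomal protein genes, mostly guides of ribosomal RNA methylation, centred on input with vehicle. Of 32 detected, 26 were tested; by RefSeq spans 6 further tested members lie in such genes and were not in the list. The 26 had a median of 0.14 log2 units with vehicle and -1.47 with No.10-3. Of them, 1 (3.85%, background 10.4%) was lower with vehicle and 6 (23.1%, background 6.51%) with No.10-3. SNORD46 stood at 25.1 and 18.6 scaled CPM in input, 3.81 with vehicle PSF-RIP, and 3.33 and 0.865 with No.10-3. It was lower in both comparisons, with log2 changes of -2.52 with vehicle (SE 0.69, edgeR adjusted p = 0.0104) and -3.62 with No.10-3 (SE 0.60, edgeR adjusted p = 7.0e-05). SNORD33, from RPL13A, stood at 30.2 and 25.7 scaled CPM in input, 30.0 with vehicle PSF-RIP, and 14.4 and 3.60 with No.10-3, so vehicle was within the inputs and only the treated libraries were lower (log2 change -1.75, SE 0.50, edgeR adjusted p = 0.0204). SNORD15B, from RPS3, stood at 125 and 160 scaled CPM in input, 110 with vehicle PSF-RIP, and 83.1 and 24.4 with No.10-3 (log2 change -1.43, SE 0.44, edgeR adjusted p = 0.0294). SNORD15A (-2.75 log2 units), SNORD83B (-2.19) and SNORD4A (-2.62) were the others called lower with No.10-3. Other members of these introns lay above both inputs with vehicle without passing the test. SNORD16, from RPL4, stood at 32.2 and 22.2 scaled CPM in input, 49.5 with vehicle PSF-RIP, and 20.3 and 2.02 with No.10-3. SNORD36A, from RPL7A, stood at 8.36 and 13.3 scaled CPM in input, 19.0 with vehicle PSF-RIP, and 14.0 and 11.1 with No.10-3, and was thus a member whose replicate 2 stayed within the inputs.

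Members from the noncoding host genes GAS5 and SNHG1, which carry snoRNAs in their introns, gave no call. In GAS5, 9 of 10 members were tested, with medians of 0.29 log2 units with vehicle and -1.06 with No.10-3. Their summed counts were 77 and 57 in input, 259 with vehicle PSF-RIP, and 89 and 133 with No.10-3. SNORD76, the best covered with SNORD80, stood at 12.2 and 13.3 scaled CPM in input, 16.9 with vehicle PSF-RIP, and 12.2 and 4.04 with No.10-3. SNORD80 stood at 16.1 and 7.10 scaled CPM in input, 14.5 with vehicle PSF-RIP, and 4.43 and 5.19 with No.10-3, so its treated libraries were alike. All 8 SNHG1 members were tested, with medians of -0.04 log2 units with vehicle and -1.24 with No.10-3. Beside SNORD22 they were thinly covered, SNORD26 for example with 7 and 2 counts in input, 14 with vehicle PSF-RIP, and 6 and 8 with No.10-3.

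SNORD17, SNORD97 and SNORD94, long and well covered members of other hosts, were lower with No.10-3 and did not pass with vehicle. SNORD17, a 28S methylation guide from SNX5 and the longest member, stood at 303 and 362 scaled CPM in input, 170 with vehicle PSF-RIP, and 105 and 6.63 with No.10-3 (log2 change -2.60, SE 0.59, edgeR adjusted p = 0.0034). SNORD97, from EIF4G2, stood at 233 and 261 scaled CPM in input, 106 with vehicle PSF-RIP, and 120 and 19.9 with No.10-3 (log2 change -1.83, SE 0.49, edgeR adjusted p = 0.0130). Replicate 1 was thus slightly above vehicle for SNORD97, and replicate 2 was far below it. SNORD94, from PTCD3, stood at 154 and 137 scaled CPM in input, 49.3 with vehicle PSF-RIP, and 28.8 and 1.59 with No.10-3 (log2 change -3.37, SE 0.59, edgeR adjusted p = 1.6e-04). The shorter SNORD2, from the translation factor gene EIF4A2, stood at 28.3 and 44.4 scaled CPM in input, 12.1 with vehicle PSF-RIP, and 5.91 and 2.31 with No.10-3. Its log2 change was -1.57 with vehicle (SE 0.59, edgeR adjusted p = 0.0512) and -3.25 with No.10-3 (SE 0.52, edgeR adjusted p = 4.0e-05). SNORD60 from SNHG19 (-1.91 log2 units) and SNORD88C (-1.46) completed the members called lower with No.10-3. SNORD89, from RNF149, was abundant but not called, at 41.2 and 33.7 scaled CPM in input, 51.7 with vehicle PSF-RIP, and 28.8 and 3.32 with No.10-3.

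The members with the highest fitted change over input with vehicle rested on 1 or 2 input counts, save SNORD116-8. SNORD24 had 2 and 0 counts in input and 14 with vehicle PSF-RIP, a ratio of 4.47 (counting interval 1.03 to 40.5). SNORD116-4, SNORD57 and SNORD59B had ratios of 4.15 (0.939 to 37.9), 3.83 (0.853 to 35.2) and 3.83 (0.465 to 176), intervals that reached below 1. Across all PSF-RIP libraries and both inputs, 36 of 115 members (31.3%; background 25.1%) lay below input in every library. SNORD58A and SNORD116-4 were the only 2 (1.74%; background 30.1%) that lay above it in every library. Of the 21 members called lower with No.10-3, 20 lay below both inputs in all PSF-RIP libraries. They were called from the same treated libraries and inputs, so this count is no separate support.

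Between the treatments, the treated libraries were compared with the single vehicle library, which was assumed to vary like the other groups. Both treated libraries lay below vehicle for 92 of 115 members (background 32.4%) and above it for 1 (0.870%; background 33.3%), SNORD78. The median change was -1.22 log2 units beside 0.04 over all genes, and 113 members lay below 0, but none passed the test. The lowest were SNORD27 (-2.93 log2 units), SNORD125 (-2.90), SNORD63 (-2.79), SNORD8 and SNORD38B (-2.72), and all but SNORD8 had 18 or fewer counts in each library. SNORD63, for example, had 17 counts with vehicle and 3 and 2 with No.10-3, a ratio of 0.128 (counting interval 0.0370 to 0.362). At the other end, SNORD78 had 3 counts with vehicle and 4 and 7 with No.10-3, a ratio of 1.60 (0.422 to 8.92). SNORD45C (0.11 log2 units), SNORD1C (-0.02), SNORD50B (-0.10) and SNORD3D (-0.19) were next to it.

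The treated libraries were far apart from each other for this class. Over vehicle, the median member stood at -0.55 log2 units in replicate 1 and at -1.81 in replicate 2, where the medians over all genes tested were 0.05 and -0.02. Replicate 2 lay below replicate 1 for 106 of 115 members, with a median difference of -1.36 log2 units beside -0.08 over all genes tested. Over input the medians were -0.17 with vehicle, -0.73 in replicate 1 and -2.06 in replicate 2. Without replicate 1, the members' median with No.10-3 was -1.91 log2 units over input and -2.05 over vehicle PSF-RIP. The medians over all genes were then 0.09 and 0.01. Without replicate 2, the members' medians were -0.58 and -0.73, beside -0.01 and -0.003 over all genes. Vehicle over input gave member medians of 0.12 and 0.17 in these fits, beside 0.04 and 0.03 over all genes. The cause of these movements was not tested.

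**Figure D4:**
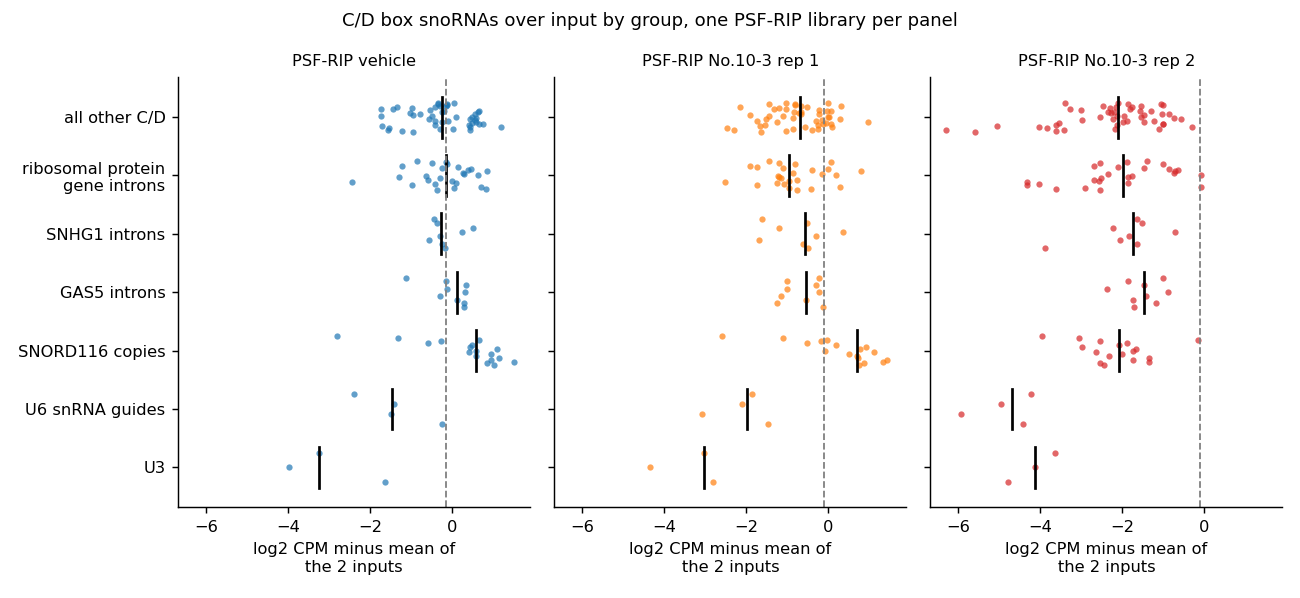
Log2 change of each PSF-RIP library from the mean input for each group of tested members, points being members, black bars the group medians and the dashed line the median of all genes tested. On this TMM scale the SNORD116 median lies above input in vehicle and replicate 1 and below it in replicate 2. The median of the listed U6 guides lies below input in all PSF-RIP libraries.

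The distance between the libraries went with the length of the RNA. Of the 17 tested members of at least 100 bases, 13 (76.5%) were lower than input with No.10-3, against 8 of 98 shorter ones (8.16%). Over all genes tested 6.51% were lower, a share near that of the shorter members. The median change over input was -1.22 log2 units with vehicle and -2.75 with No.10-3 for the long members, and 0.30 and -1.07 for the short ones. In replicate 2 the median over vehicle was -1.46 log2 units under 80 bases, -2.11 from 80 to 99 and -3.36 from 100 upward. In replicate 1 the same medians were -0.65, -0.43 and -0.68, which gave no such order. Spearman's rho between length and the change over vehicle was 0.12 in replicate 1 and -0.43 in replicate 2, over 115 members that share their libraries and whose depth was not held equal. Members of at least 100 bases gave 67.6% and 71.0% of the C/D counts outside U3 in input, 52.9% with vehicle PSF-RIP, 51.8% in replicate 1 and 31.9% in replicate 2. The long members are also the better covered ones, and whether size selection, fragmentation or coverage had a part in this was not tested.

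**Figure D5:**
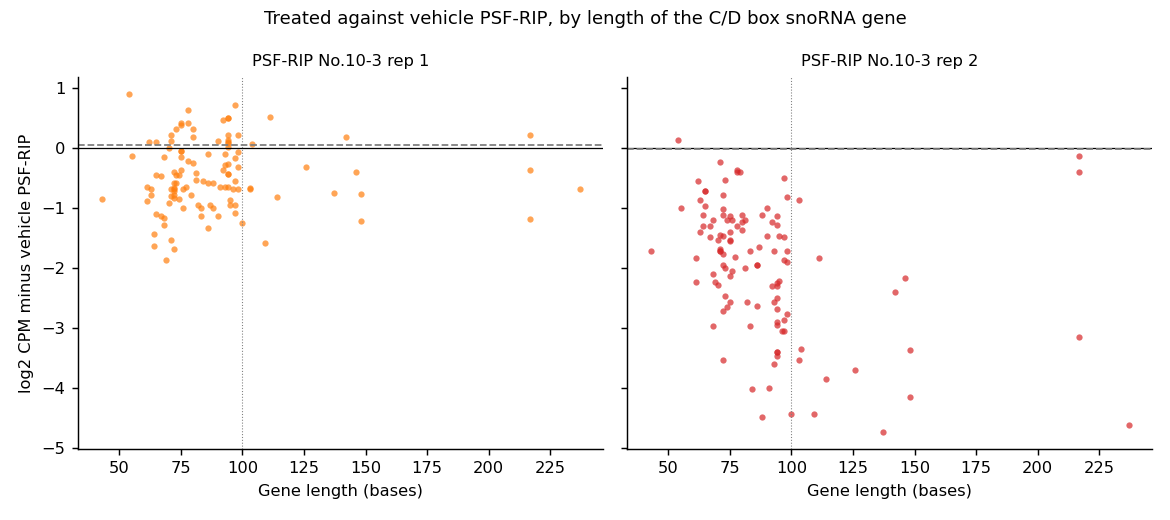
Log2 CPM of each tested member minus its value in vehicle PSF-RIP, plotted against gene length (bases), for No.10-3 replicate 1 at left and replicate 2 at right; dashed lines mark the median of all genes tested and dotted lines 100 bases. In replicate 2 the median is lowest for the long members (-3.36 from 100 bases), whereas replicate 1 shows medians of -0.65, -0.43 and -0.68 over the length classes.

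The other small guide RNAs were compared to see what was particular to the C/D class. Among 85 tested H/ACA box snoRNAs, which guide pseudouridylation, 1 was higher and 10 (11.8%; background 10.4%) were lower with vehicle and 38 (44.7%; background 6.51%) were lower with No.10-3, with medians of -0.22 and -1.70 log2 units. Their median over vehicle was -0.48 in replicate 1 and -3.31 in replicate 2. Among 23 Cajal body RNAs, which guide changes in spliceosomal RNAs, 7 (30.4%) were lower with vehicle and 18 (78.3%) with No.10-3, with medians of -0.97 and -2.40. The low values of replicate 2 were therefore not limited to C/D box snoRNAs, and no difference between the classes was tested.

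Host transcripts were set beside the snoRNAs of their introns. For 58 pairs of a tested member and its host, with 23 hosts, the RefSeq span of the host held the member in every case. The member lay below its host in 19 pairs with vehicle over input, 33 with No.10-3 over input and 52 with No.10-3 over vehicle, and the median of member minus host was 0.58, -0.15 and -0.78 log2 units. EIF4A2 stood at 0.69 and 0.09 log2 units, on the other side of input from SNORD2 with vehicle. Of the 25 hosts listed, 7 (28.0%, background 10.4%) were lower with vehicle and 12 (48.0%, background 6.51%) with No.10-3. In both comparisons 0 were higher, where the background was 10.1% and 5.03%. The lower calls were 5 and 7 among the 12 ribosomal protein hosts, and 2 and 5 among the 13 other hosts. With vehicle the medians of these host sets were -1.09 and -0.06 log2 units. Reads of an unspliced host can fall on the snoRNA and reads of the snoRNA on the host, and this was not separated here.

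The messenger RNAs for the proteins of the C/D particle were mostly near input. Of fibrillarin (FBL), NOP56, NOP58, SNU13 and the U3 protein RRP9, none passed with vehicle. RRP9 was higher with No.10-3 (log2 change 1.85, SE 0.58, edgeR adjusted p = 0.0314). Its change with vehicle was similar (1.67, SE 0.65, edgeR adjusted p = 0.0638), and 0.19 log2 units lay between the treatments. FBL stood at -0.24 and -0.13 log2 units, NOP56 at 0.37 and 0.16, NOP58 at 0.49 and 0.17, and SNU13 at -1.32 and -0.80, with vehicle and No.10-3. Of 20 assembly and processing factors, RUVBL2, an ATPase of the assembly machinery (1.64 log2 units, edgeR adjusted p = 0.0241), and TCOF1, the nucleolar protein treacle (2.07, edgeR adjusted p = 0.0104), were higher with vehicle, and none passed with No.10-3. That is 10.0% of the list beside 10.1% of all genes tested, so the share is that of the background. No gene of either list was called between the treatments.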

How the data were processed

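The authors deposited 1 table of raw read counts per Entrez gene with each gene's length, an "other" quantity in bases. The submitters' processing notes name hg19, Bowtie, Bowtie2 2.2.6 and TopHat2 2.1.0. How reads were counted, by strand or when multiply mapped, and with which annotation is not given in the sources used here. Per the file headers, 2 columns are inputs without their treatment. The column for No.10-3 replicate 1 was assigned by elimination. Genes averaging 1 CPM or more over the 5 libraries were tested with edgeR 4.0.16 (R 4.3.3; glmQLFit and glmQLFTest, TMM), in 1 fit of 3 groups with 2 residual degrees of freedom. SE is the log2 change divided by the square root of F. Scaled CPM of single libraries are counts over the TMM-scaled library total, without a prior count. Log2 values of single libraries, alone or over input or vehicle, used a prior count of 2. DESeq2 1.42.0, other scalings and filters, and leaving out each library were alternatives. Scripts were tested on simulated data. Members and lists were chosen with earlier results of these data known. Members were named by role, abundance, smallest p, extreme change and host cluster. Gene coordinates of RefSeq (GRCh38.p14) gave the host spans, and no other coordinates were used. No snoRNA sequence was used here. The results of 1 host gene and 1 marker are not reported here.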

Additional observations from a re-analysis of the deposited data

How the results depend on the processing

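The tested counts moved as follows. For vehicle PSF-RIP over input, 0 members were higher and 5 lower; total-count scaling gave 85 and 0, DESeq2 gave 1 lower (SNORD46), no filter on low counts gave 1 higher (SNORD116-8) and 11 lower, and a mean of at least 5 CPM gave 2 lower (SNORD2 and SNORD46, 51 members tested). Leaving out each library gave 0 to 7 higher and 1 to 15 lower, the 1 (SNORD3B-2) without input 1. For No.10-3 PSF-RIP over input, 0 were higher and 21 lower; total-count scaling gave 33 and 3, DESeq2 gave 7 lower, and leaving out each library gave 0 to 3 higher and 13 to 44 lower, the 13 without input 1. For No.10-3 over vehicle PSF-RIP, 0 were higher and 0 lower; no filter gave 3 lower (SNORD8, SNORD10 and SNORD16), and leaving out each library gave 0 to 0 higher and 0 to 48 lower. Upper-quartile scaling and TMM factors made without snoRNAs, Cajal body RNAs and mitochondrial genes gave 5 and 6 lower with vehicle and 21 each with No.10-3. Over all genes, 1340 were higher and 1390 lower with vehicle and 670 and 867 with No.10-3. DESeq2 gave 669 and 995, and 307 and 576, and total counts gave 9720 and 50, and 11524 and 53. With vehicle, no filter gave 1478 higher and 1400 lower of 17015 genes, and a mean of at least 5 CPM gave 1231 and 1413 of 10923. The share of counts in the class, in the order input 1, input 2, vehicle, replicate 1 and replicate 2, was 0.0802%, 0.0754%, 0.316%, 0.204% and 0.0523% without U3, 0.0685%, 0.0621%, 0.283%, 0.185% and 0.0509% for genes under 200 bases, and 1.60%, 0.473%, 1.32%, 0.658% and 0.180% of counts outside mitochondrially encoded genes. Relative to the median gene, 4 named values changed sign when a treated library was left out: over vehicle, SNORD116-16 ranged from -3.49 to 0.01 (0.0077 without replicate 2), SNORD13 from -3.71 to 0.03 (0.0329) and SNORD97 from -2.43 to 0.19, and over input with No.10-3, SNORD116-8 ranged from -1.27 to 1.47. No paired analysis was possible because the groups share fewer than 2 replicate numbers in the labels. Where a library is left out, the lone sample is assumed to vary like the other groups. The cause of these movements was not tested, and low counts limit most single members.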
